A study of Mus musculus with 3 samples.

Results

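Cardiac precursor cell cultures (CPCCs) were compared with the mouse embryonic stem cells (mESCs) from which they were grown, gene by gene and cell by cell, by single-cell RNA sequencing (scRNA-seq). All cells with at least 100000 gene counts entered the comparison. They numbered 169 of the 175 CPCC cells and 203 of the 215 mESC cells. The 2 samples belong to a series of 3, and the third, beating cardiac bodies, was not used. Of the genes listed in the tables, 20272 were listed in both, and 14737 of these had a mean level of at least 1 CPM (counts scaled to the same total in each sample) over the 2 samples.

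Both samples were male F1 cells of a C57BL/6J by CAST/EiJ cross, and the study derived its mESC clones from single blastocysts. The mESCs were grown without feeder cells on gelatin in 2i medium with LIF, in which PD0325901 inhibits MEK and CHIR99021 inhibits GSK3. The media of both samples contained serum. For CPCCs, cells were aggregated in hanging drops, grown as embryoid bodies with ascorbic acid, dissociated and passaged with EGF and Fgf2, and the methods name neither LIF nor the inhibitors among the additions at these stages. The cells of passage 4 were loaded on microfluidic chips. Each culture was 1 sample, so no difference given here has a test or a replicate check. The label calls the mESC sample a triplicate, without tying its columns to clones. The columns of the tables fall into 3 mESC pools of 87, 71 and 45 cells and 2 CPCC pools of 78 and 91 cells. Pools are not shown to be replicates, since no label ties a pool to a clone or a culture, and their values are printed only to show the spread.

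As background, mESCs in 2i medium with LIF are held in the naive state of pluripotency, in which a network of transcription factors such as Nanog, Esrrb and Tfcp2l1 is active and signalling through the kinase ERK is blocked. Removal of the block and exposure to FGF lets cells leave this state. Cells of mesodermal origin then take up programmes of smooth muscle, fibroblast, endothelial or heart muscle cells, which can be told apart by their contractile proteins, collagens and surface receptors.

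The depth was alike in both samples. The median was 1649199 counts per mESC cell and 1448040 per CPCC cell, with pool medians from 1124361 to 2002982, and the median number of genes per cell was 9582 and 9333. Mitochondrial genes held 4.97% of mESC and 4.64% of CPCC counts, and 13 mESC cells, 9 of them in mESC pool 3, and 3 CPCC cells held more than 30%. At least 10 counts of at least 3 of 5 macrophage markers were found in 20 cells, all of CPCC pool 2. No column of counts repeated another and the tables shared no column name. No doublet caller was run, and columns from chambers with more than 1 cell could not be told from the rest.

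The sequences in front of a few of the genes on which the comparison turns are shown because one group of genes, the contractile genes of smooth muscle, was higher together. Many genes of this group are controlled through the CArG box, a site of 10 bases that binds serum response factor. The RefSeq promoter table for GRCm38.p6 held 32851 windows of 300 bases, 250 before and 50 after each annotated start. Of these windows, 1.63% held a full CArG box and 9.98% held a full one or one with a single G or C in its centre. Windows were given for 11 of the 14 contractile genes. Of these 11, Myl9 (myosin light chain) had 1 full and 1 near match and Acta2 (smooth muscle actin) had 2 near matches. The stretches below run 5′ to 3′ on the strand of the gene, with 10 bases on each side of the match, which is in capitals.
Acta2, near match, chr19:34255438-34255467, minus strand: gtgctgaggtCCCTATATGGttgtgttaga
Acta2, near match, chr19:34255388-34255417, minus strand: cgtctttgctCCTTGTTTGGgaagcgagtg
Myl9, full match, chr2:156775293-156775322, plus strand: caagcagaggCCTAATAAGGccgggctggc
Myl9, near match, chr2:156775355-156775384, plus strand: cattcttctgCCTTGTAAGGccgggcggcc
The matches began 84 and 34 bases before the RefSeq start of Acta2, and 161 and 99 bases before that of Myl9. In the longer GENCODE M21 model both Acta2 stretches lie in the first exon. A full match was also found in at least 1 of the 3 windows of Crxos, which was lower in CPCCs.

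Krt8 and Spic are shown as the keratin with the highest ratio and the gene with the lowest. For Krt8, capitals mark TATAAA overlapping its reverse complement, with the first capital 3 bases before the RefSeq start. All 28 bases of the Krt8 stretch lie in exons of the GENCODE M21 models. TATAAA on either strand was found in 13.6% of all windows. The Spic stretch is the 250 bases before the RefSeq start, which lie in an intron of a longer GENCODE transcript. It held no CArG box and no TATAAA.
Krt8, TATAAA, chr15:102004328-102004355, minus strand: ggcctcttctTTTATAAAgggccttcgc
Spic, no match, chr10:88683024-88683273, minus strand: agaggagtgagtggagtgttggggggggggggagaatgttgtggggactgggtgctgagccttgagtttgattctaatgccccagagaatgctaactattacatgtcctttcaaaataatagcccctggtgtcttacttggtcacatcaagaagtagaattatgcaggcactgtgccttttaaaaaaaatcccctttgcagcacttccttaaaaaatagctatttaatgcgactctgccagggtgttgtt
A comparison of these motifs between higher and lower genes is void, because only 69.6% of the compared genes, 74.3% of the higher and 73.5% of the lower ones, matched a window by symbol.

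Across all genes, ratios of 4-fold or more were found more often upwards than downwards in CPCCs. Ratios were formed from the summed counts of each sample as the log2 ratio of (CPM + 1), and a gene was called at 4-fold or more on that scale. In CPCCs 1056 genes were higher (7.17% of those compared) and 211 were lower (1.43%). The median log2 ratio over all compared genes was -0.0060. For 897 of the higher genes (6.09% of all compared) both CPCC pools lay above all 3 mESC pools, and for 209 of the lower genes (1.42%) both lay below. Whatever the size of the ratio, pools stood apart upwards for 22.5% and downwards for 21.5% of all compared genes. With CPCC pool 2 left out 514 genes were higher and 176 lower, and with CPCC pool 1 left out 1435 and 646. Just past the 4-fold limit, and so called, stood Leng9 at 2.003 and Gm17056 at 2.006, and Lmo1 at -2.0003 and Trim25 at -2.006. Just short of it, and so not called, stood Frk and Msx2, both at 1.996, and Clec4a1 at -1.99. In what follows, a gene inside the limit is one that was not called.

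**Figure D1:**
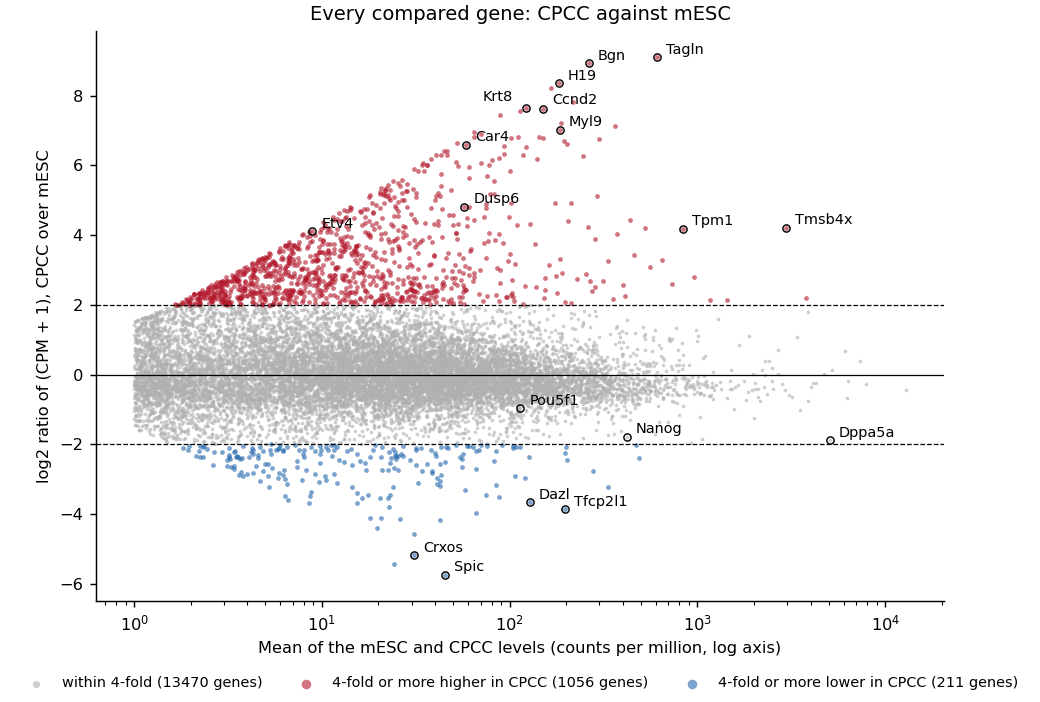
Each point is 1 of the 14737 compared genes, with the mean of its mESC and CPCC levels in CPM on a log x axis and its log2 ratio of (CPM + 1), CPCC over mESC, on the y axis; dashed lines mark 4-fold. The 1056 higher genes reach 9.10 for Tagln, while the 211 lower genes end at -5.74 for Spic.

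The difference was rarely shared by all cells. For each gene the CPM in a CPCC cell was set against that in an mESC cell for every possible pair of cells, with ties divided equally. The CPCC cell was higher in at least 90% of pairs for 1 gene, Tagln (0.00679% of those compared), and in at most 10% for 28 genes (0.19%), of which 24 were among the 211 lower ones. With CPCC pool 2 left out these numbers were 14 and 12, and with CPCC pool 1 left out 6 and 130. Of the 1056 higher genes, 105 (9.94%) were detected with at least 1 count in 75% or more of the CPCC cells, 563 (53.3%) in 25 to 75% and 388 (36.7%) in fewer. The median higher gene was detected in 33.1% of CPCC and 6.90% of mESC cells, and the median lower gene in 16.6% of CPCC and 70.9% of mESC cells. Over all compared genes the median detection was 59.8% of CPCC and 65.5% of mESC cells. For 747 of the higher genes (70.7%), 9 CPCC cells held at least 50% of the gene's CPCC counts. This was so for 167 of the 211 lower genes (79.1%) and for 35.7% of all compared genes. It thus did not set higher genes apart from lower ones. The median higher gene was thus found in fewer CPCC cells than the median compared gene. Of the 211 lower genes, 97 (46.0%) were detected in 75% or more of mESC cells. How many of all compared genes fell in these ranges of detection was not counted. After thinning of every cell to 400000 counts, which left out 7 mESC and 9 CPCC cells, the share of cells with the gene was still larger in CPCCs for 1039 of the 1056 higher genes and smaller for all 211 lower ones.

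Tagln (chr9:45929619-45936058, GRCm38) encodes transgelin, which binds actin in smooth muscle. It had 0.0181, 0 and 4.10 CPM in the 3 mESC pools and 878 and 1531 CPM in the CPCC pools. The pools did not overlap, and the log2 ratio was 9.10. Over the samples the level was 1.21 CPM (1.10 to 1.33) in mESCs and 1215 CPM (1211 to 1219) in CPCCs, where the brackets are exact Poisson intervals at 95% that cover counting error only. Tagln was detected in 4 mESC cells (1.97%, exact interval 0.539 to 4.97%) and in 141 CPCC cells (83.4%, 77.0 to 88.7%), or 2.04% and 71.9% after thinning. In 87 CPCC cells (51.5%) it was above the highest mESC cell, and the median and the upper quartile over CPCC cells were 79.3 and 1758 CPM, so that most cells had the transcript at very unequal levels.

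Of the other leading genes, Bgn (chrX:73483602-73495933) encodes the matrix proteoglycan biglycan. It had at most 0.146 CPM in an mESC pool, and 32.9 and 992 CPM in the CPCC pools, a log2 ratio of 8.93, and was detected in 1.48% of mESC and 45.6% of CPCC cells. Krt8 (chr15:101996698-102004482) encodes a keratin of simple epithelia. It had at most 0.416 CPM in an mESC pool and 437 and 63.8 CPM in the CPCC pools, a log2 ratio of 7.65. The order of the CPCC pools was thus opposite for these 2 genes, and 9 cells held 79.0% of the Krt8 counts of CPCCs. Both were detected in a similar share of CPCC cells, 45.6 and 50.3%.

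Spic (chr10:88674772-88685015) encodes a transcription factor of the Ets family. It had 118, 71.7 and 83.9 CPM in the mESC pools, and 0.997 and 0.422 CPM in the CPCC pools, a log2 ratio of -5.74. It was detected in 179 mESC cells (88.2%, 82.9 to 92.3%) and in 6 CPCC cells (3.55%, 1.31 to 7.57%). Crxos, a homeobox gene, had 61.3, 54.7 and 69.5 CPM in the mESC pools against 1.32 and 0.162 CPM, a log2 ratio of -5.17, and was detected in 86.2% and 10.1% of cells. In both genes the CPCC pools stood far below the mESC pools, at about 1 CPM or less.

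**Figure D2:**
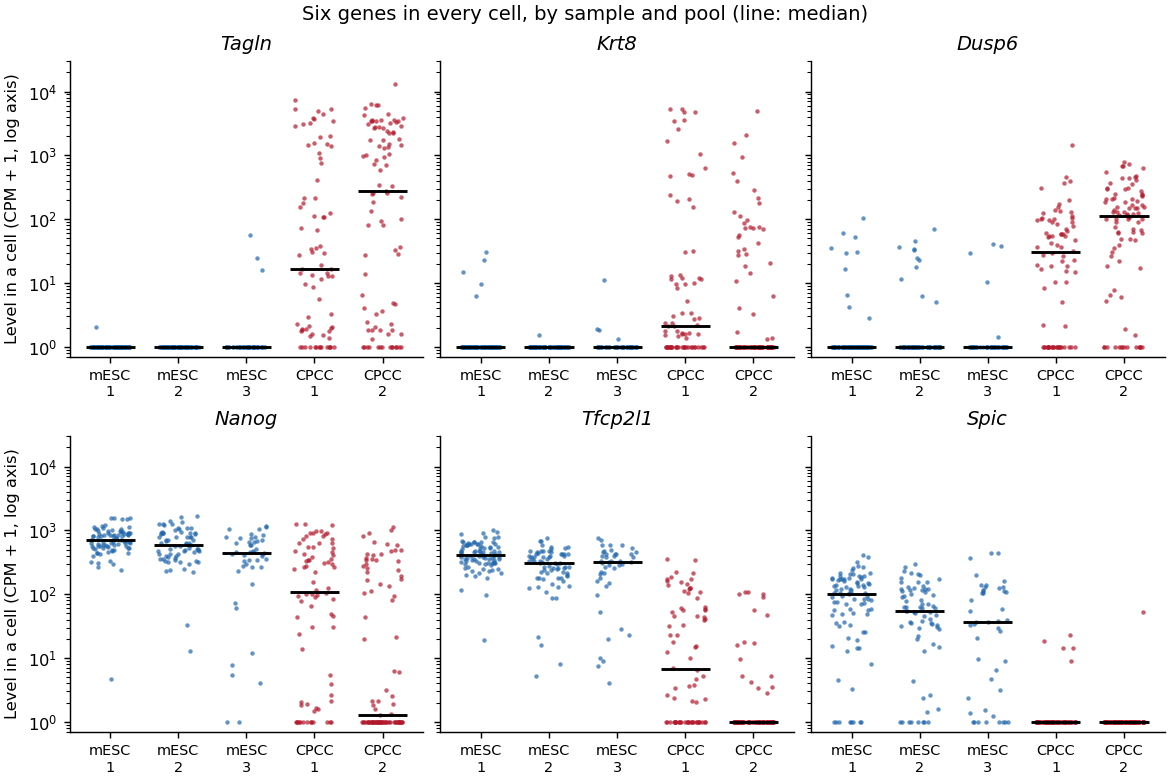
Each point is 1 cell, with the level of the gene in CPM + 1 on a log y axis and the sample and pool on the x axis; the line is the median of the pool. Tagln and Dusp6 spread upwards in both CPCC pools, Krt8 is high in few cells, Nanog has CPCC cells both at 0 and at mESC levels, Tfcp2l1 lies below most mESC cells, and Spic was not detected in most CPCC cells.

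The naive pluripotency factors were lower in CPCCs as a list, by unequal amounts. All 13 had a ratio below 0, with a median of -1.79 against -0.0060 for all compared genes, and 4 passed the 4-fold rule (against 1.43% of all). Over the same genes the median was -3.91 without CPCC pool 1 and -1.14 without pool 2, and such values are given in brackets for the lists that follow. Both CPCC pools lay below all mESC pools for 11 of the 13 (against 21.5% of all). The 4 were Tfcp2l1, Prdm14, Tcl1 and Tbx3, of which Tbx3 (-2.72) was inside the limit without CPCC pool 2 (-1.85). Tfcp2l1, a transcription factor downstream of LIF, had 450, 327 and 336 CPM in the mESC pools and 47.0 and 3.42 CPM in the CPCC pools, a log2 ratio of -3.85. It was detected in all 203 mESC cells and in 67 CPCC cells (39.6%), and the CPCC cell was higher in only 2.81% of pairs, the lowest share among genes with a mean level of at least 50 CPM. Prdm14, which represses differentiation genes, had 71.1 to 80.2 CPM in the mESC pools and 12.7 and 2.75 CPM in the CPCC pools (-3.19).

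Nanog, Esrrb and Zfp42 stood inside the 4-fold limit, at -1.79, -1.91 and -1.69. Nanog, the homeobox factor of the network, had 721, 693 and 523 CPM in the mESC pools and 295 and 87.4 CPM in the CPCC pools. Esrrb, an orphan nuclear receptor, had 110 to 170 CPM in the mESC pools and 66.8 and 5.17 CPM in the CPCC pools. In each of these the second CPCC pool was much lower than the first, so the distance from mESCs depended on the pool. Klf2 (-0.88) and Nr0b1 (-0.45) were the 2 factors whose pools overlapped.

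Factors shared by naive and later pluripotent cells differed less. Of the 11 tested, 1 was higher, near the 7.17% of all compared genes, none was lower and the median was -0.53 (-1.94 without CPCC pool 1 and 0.11 without pool 2), so that its sign turned on a pool. Pou5f1, the Oct4 gene, had 121 to 210 CPM in the mESC pools and 141 and 16.8 CPM in the CPCC pools, so that the first CPCC pool lay within the mESC range. Utf1 had a ratio of 0.29. The 1 higher gene was Lin28a, an RNA-binding protein that blocks let-7 maturation, with 0.823 to 2.98 CPM in the mESC pools and 19.8 and 5.53 CPM in the CPCC pools (2.41, and 1.37 without CPCC pool 1). Dppa5a, a small protein of pluripotent cells, had 7986 CPM in mESCs and 2175 CPM in CPCCs (-1.88) and was still detected in 83.4% of CPCC cells.

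Germline-linked genes expressed in mESCs were lower in part. Of 13 tested, 3 were lower (against 1.43% of all compared genes), none was higher and the median was -0.69 (-1.20 without CPCC pool 1 and 0.25 without pool 2), of which the sign also turned on a pool. Dazl, an RNA-binding protein of germ cells, had 183 to 328 CPM in the mESC pools and 32.6 and 4.25 CPM in the CPCC pools (-3.66). Ooep, an oocyte protein, went from 482 to 70.6 CPM (-2.75), with the CPCC cell higher in 6.25% of pairs, and Stk31 was the third (-2.09). Without CPCC pool 2, Ooep (-1.92) and Stk31 (-1.21) were inside the limit. The other low ratios belonged to genes of varied kinds, among them the water channel Aqp3 (-4.17), the homeobox gene Hesx1 (-4.12), the X-linked Xlr4b (-4.10), the kinases Aurkc (-4.09) and Stk33 (-3.79), and the cation channel Trpm1 (-4.39).

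ERK target genes were higher in part. MEK, which activates ERK, is the target of one of the inhibitors in the mESC medium, and the genes of the list are feedback inhibitors and transcription factors induced by the pathway. Of 14 tested, 9 were higher (against 7.17% of all), none was lower and the median was 2.42 (2.98 without CPCC pool 1 and 2.07 without pool 2). At a pseudocount of 10 CPM, 5 of the 9 were inside the limit. Dusp6, a phosphatase that inactivates ERK, had 2.88, 3.97 and 1.90 CPM in the mESC pools and 69.3 and 152 CPM in the CPCC pools, a log2 ratio of 4.81. It was detected in 26 mESC cells (12.8%) and 133 CPCC cells (78.7%), or 12.2% and 75% after thinning. Etv4, an Ets factor, had at most 0.233 CPM in an mESC pool and 27.4 and 8.55 CPM in the CPCC pools (4.11), and was detected in 62.7% of CPCC cells. In these 2 genes the pools of the samples did not overlap, and most CPCC cells had at least 1 count.

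Other higher members were Egr1 (3.80), Myc (3.65), Phlda1 (3.57) and Spred1 (3.04), the last an inhibitor of Raf activation, and the feedback inhibitor Spry1 (2.56), Ier3 (2.28) and the phosphatase Dusp4 (2.09). The last 3 depended on a pool, with Spry1 (1.25) and Ier3 (1.31) inside the limit without CPCC pool 2 and Dusp4 (1.70) without CPCC pool 1. Spry2 (0.19) and Spred2 (0.09) differed little. Etv5, closely related to Etv4, was the exception in sign, with 136 to 283 CPM in the mESC pools and 105 and 59.2 CPM in the CPCC pools (-1.25). The other members, Spry4 and Fosl1, were listed only in CPCCs, at 14.5 and 3.42 CPM.

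Ligands and receptors of FGF and EGF, the factors added to the culture, were compared as a list. Of 12 tested, 6 were higher (against 7.17% of all), none was lower and the median was 1.91 (1.30 without CPCC pool 1 and 0.86 without pool 2). All 6 were inside the limit at a pseudocount of 10 CPM, with a list median of 0.58. The ligands Fgf5 (4.17), Fgf15 (3.29) and Fgf17 (2.43), the heparin-binding ligand Hbegf (2.41) and the receptor Egfr (2.73) were higher with pools apart. Of these, Fgf17 was inside the limit without CPCC pool 1 (1.14), and Hbegf (1.88) and Egfr (1.85) were inside it without CPCC pool 2. Fgf8 (2.54) had 0.270 CPM in one CPCC pool and 12.3 CPM in the other, and its ratio was -0.020 without the latter pool. The receptors Fgfr1 (0.08) and Fgfr3 (0.05) had nearly the same level in both samples. Of genes of the formative and primed states, 3 of 10 were higher (against 7.17% of all), none was lower and the median was 1.65 (0.66 without CPCC pool 1 and 1.37 without pool 2). Car4, a carbonic anhydrase, was the largest of them, with at most 0.575 CPM in an mESC pool and 123 and 111 CPM in the CPCC pools (6.59), and it was detected in 1 mESC cell (0.493%) and 49.7% of CPCC cells. Otx2, a homeobox factor of this state, had a ratio of -0.80.

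Genes of the LIF and STAT3 pathway had a median of 0.11 (0.27 without CPCC pool 1 and -0.097 without pool 2), with 2 of 11 higher (against 7.17% of all compared genes), Junb (3.17) and Gbx2 (2.53, and 1.91 without CPCC pool 1), and none lower. Socs3, the feedback inhibitor of STAT3, had 4.91 to 9.71 CPM in the mESC pools and 4.90 and 5.65 CPM in the CPCC pools (-0.36), so that the pools overlapped. Targets of Wnt signalling, which the GSK3 inhibitor activates, had a median of -0.73 (-1.07 without CPCC pool 1 and -0.51 without pool 2), with 1 of 11 higher, near the 7.17% of all, and none lower. It was the Wnt inhibitor Dkk1 (2.38, and 0.73 at a pseudocount of 10 CPM). Axin2 (-0.88) and Sp5 (-1.24) were inside the limit.

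The contractile genes of smooth muscle had the largest ratios of the muscle lists. Of 11 tested, 7 were higher (against 7.17% of all), none was lower, the median was 3.88 (4.23 without CPCC pool 1 and 3.24 without pool 2) and all 11 had their pools apart upwards (against 22.5% of all compared genes). Beside Tagln they were Myl9 (7.02), Cnn1 (6.63), Tpm2 (6.33), Tpm1 (4.19), Cald1 (3.88) and Lmod1 (2.73). Myl9 had at most 5.30 CPM in an mESC pool and 235 and 494 CPM in the CPCC pools. Acta2, which with Tagln defines the list, was not listed in mESCs, which means that no mESC cell of the table reached 1 count or that the gene was left out of the table. In CPCCs it had 2875 and 5404 CPM in the pools and was detected in 84.6% of cells (78.3 to 89.7%). No ratio is given for it. Myh11, the myosin heavy chain of mature smooth muscle, reached only 1.45 CPM in 2.37% of CPCC cells.

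The genes that separated cells best included several that bind actin. Besides Tagln, the highest shares of pairs among genes with a mean of at least 50 CPM belonged to Tmsb4x and Zyx (both 88.2%), Tpm2, Pdlim7, Cnn2 and Rhoc (all 88.0%), Tagln2 (87.7%), and Tuba1a and Myl9 (both 87.5%). Tmsb4x, which binds actin monomers, had 240 to 379 CPM in the mESC pools and 2411 and 8625 CPM in the CPCC pools. Zyxin, encoded by Zyx and found at focal adhesions, had at most 2.09 CPM in an mESC pool and 101 and 203 CPM in the CPCC pools. Of the 10 tested genes of the actin and YAP list, 7 were higher (against 7.17% of all), none was lower and the median was 2.41 (2.69 without CPCC pool 1 and 2.01 without pool 2). Ankrd1 (7.44), Cnn2 (5.12), Ccn1 (4.39) and Ccn2 (2.88, and 1.94 without CPCC pool 2) were among them, and all 10 had their pools apart upwards (against 22.5% of all). Ankrd1 was unlike the others in that 9 cells held 82.3% of its CPCC counts.

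**Figure D3:**
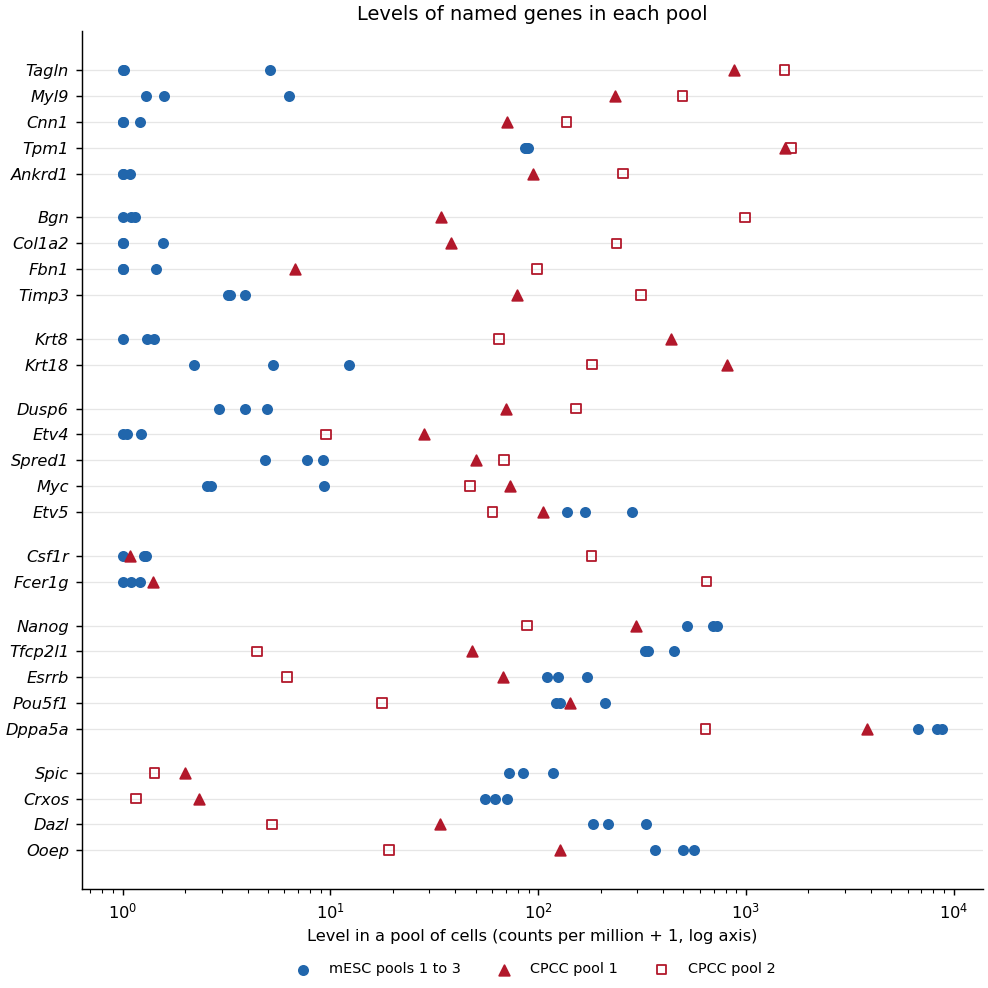
Each row is a gene, with the level in each of the 3 mESC pools and in the 2 CPCC pools in CPM + 1 on a log x axis. Contractile and ERK genes are high in both CPCC pools, Krt8 is highest in CPCC pool 1, Csf1r and Fcer1g are high in CPCC pool 2 alone, and the pluripotency factors are lowest in CPCC pool 2.

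Many collagen and mesenchymal genes were higher in CPCCs, and other matrix genes were divided. Of 12 collagen and collagen processing genes, 9 were higher (against 7.17% of all), none was lower and the median was 3.32 (3.77 without CPCC pool 1 and 2.81 without pool 2). Col1a2, a chain of the fibrillar collagen I, had at most 0.570 CPM in an mESC pool and 36.9 and 238 CPM in the CPCC pools (6.91), and it was detected in 0.493% and 33.1% of cells. Col4a1 (4.77) and Col4a2 (5.12), the chains of basement membrane collagen, were nearly even between CPCC pools, with 134 and 154 CPM for Col4a1. Of 14 proteoglycans and glycoproteins, 6 were higher (against 7.17% of all), none was lower and the median was 1.78 (2.27 without CPCC pool 1 and 1.06 without pool 2), and the 3 with a ratio below 0 were Fbln1, Nid1 and Nid2. Over these 14 the median detection was 74.6% of mESC and 61.5% of CPCC cells, and the median pair share was 45.2%, so that the cell values did not follow the summed ratios. Of the chains of collagen I, Col1a1 had 1.11 CPM in mESCs and was detected in 13.8% of their cells.

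Of the 12 mesenchymal factors, 10 were higher (against 7.17% of all), none was lower and the median was 3.02 (3.74 without CPCC pool 1 and 2.38 without pool 2), or 1.06 at a pseudocount of 10 CPM, where 6 of the 10 were inside the limit. Vim, an intermediate filament protein, had 37.8 to 45.8 CPM in the mESC pools and 474 and 917 CPM in the CPCC pools (4.03). Cdh11, a cadherin of mesenchymal cells, had 15.5 and 235 CPM in the CPCC pools (6.94). The repressors Snai1 (2.20), Snai2 (3.06) and Twist1 (2.44) were higher, while Zeb1 was not (-0.49). Without CPCC pool 2, Snai2 (1.90) and Twist1 (1.20) were inside the limit, and at a pseudocount of 10 CPM all 3 were (0.51 to 1.19). Of 14 TGF-beta and BMP response genes, 9 were higher (against 7.17% of all), none was lower and the median was 3.27 (3.40 without CPCC pool 1 and 2.09 without pool 2). Tgfb2 (5.83) and Bmp4 (3.61) are ligands, Id1 (2.54) and Id3 (3.32) are targets of BMP signalling, and Fst (4.16), an inhibitor of activins, was higher in CPCC pool 1, at 76.0 against 23.5 CPM.

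Some genes of epithelia were higher as well. Of 5 keratins tested, 4 were higher (against 7.17% of all), none was lower and the median was 4.30 (3.29 without CPCC pool 1 and 4.93 without pool 2). Krt18, the partner of Krt8, had 1.20, 4.28 and 11.3 CPM in the mESC pools and 813 and 180 CPM in the CPCC pools (6.26), and Krt19 had a ratio of 4.30. Krt7 was the fourth (2.33), and had 0.60 without CPCC pool 1. Of 13 epithelial junction genes, 5 were higher (against 7.17% of all), none was lower and the median was 1.52 (1.33 without CPCC pool 1 and 1.75 without pool 2). They were Esrp1 (3.45), a splicing factor of epithelia, Cldn6 (3.35), Cldn7 (3.19), Rab25 (2.39) and Grhl2 (2.28, and 1.33 without CPCC pool 1). All of these but Cldn6 were inside the limit at a pseudocount of 10 CPM. Epcam stood just inside the limit and was not called, with 230 against 56.9 CPM (1.996). Cdh1, the epithelial cadherin, had 82.5 to 120 CPM in the mESC pools and 128 and 36.5 CPM in the CPCC pools (-0.23).

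**Figure D4:**
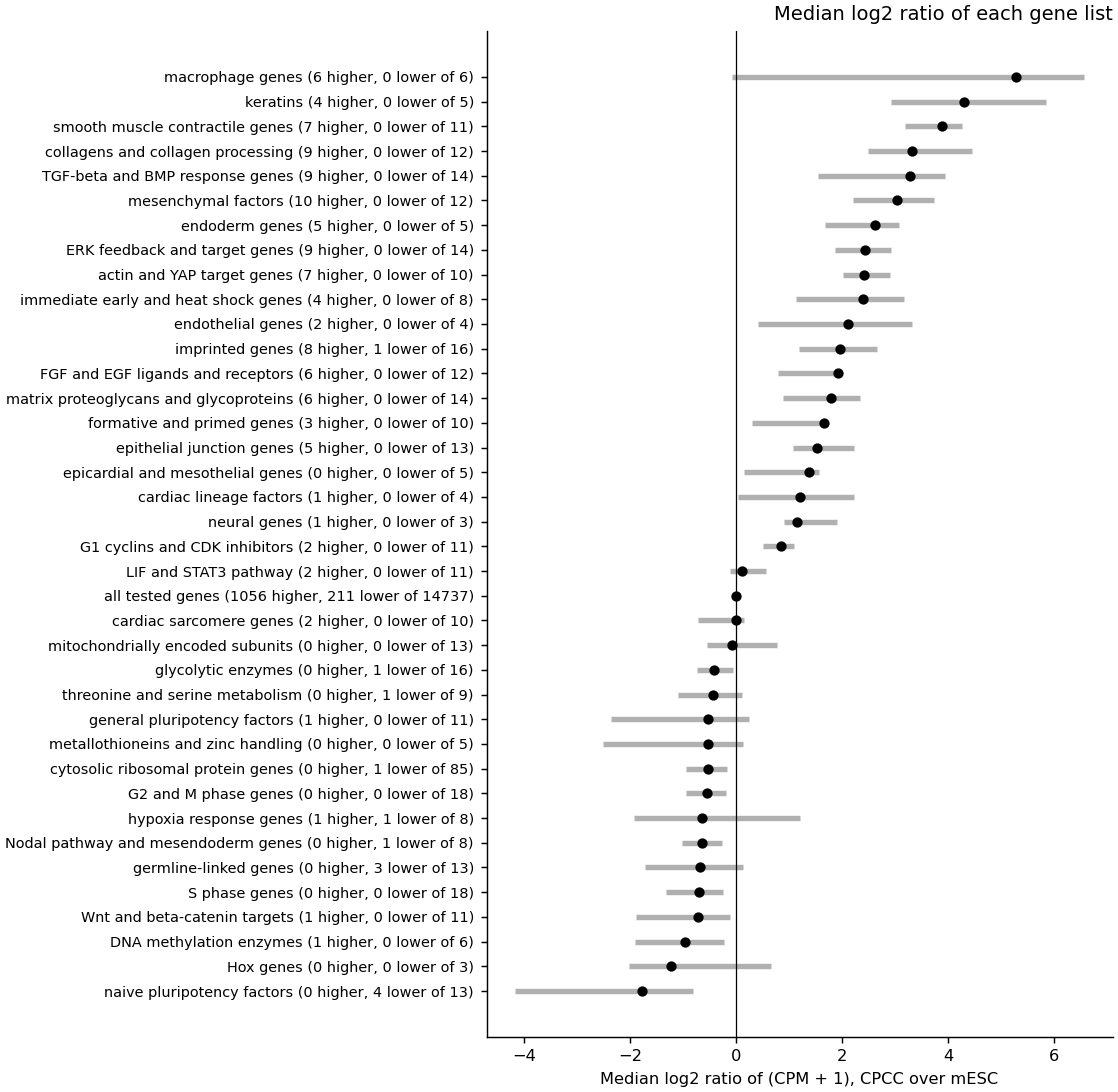
Each row is a gene list with at least 3 compared genes; the point is the median log2 ratio of (CPM + 1), CPCC over mESC, and the grey bar spans the medians over the 6 pairs of 1 CPCC and 1 mESC pool. The macrophage list has the highest median, 5.28, with a bar that starts at -0.09, and the naive pluripotency factors have the lowest, -1.79.

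Genes of heart muscle and of the cardiac lineage were compared next. They are no check of the label of cardiac precursors. For that label the paper used, among others, Fst, Mef2c and Sox9 in bulk cultures and clusters of single cells with known markers. Fst was higher here (4.16). The cardiac sarcomere list had a median of -0.0092 (-0.40 without CPCC pool 1 and -0.37 without pool 2), with 2 of 10 higher (against 7.17% of all) and none lower (against 1.43%). Tnnt2, cardiac troponin T, had 1.11 CPM in CPCC pool 1 and 164 CPM in pool 2, against 0.626 to 3.46 CPM in the mESC pools (4.74, and -0.61 without CPCC pool 2), and 9 cells held 96.5% of its CPCC counts. Tnnc1, the troponin C of heart and slow muscle, had 23.5 and 3.29 CPM in the CPCC pools and at most 0.742 CPM in an mESC pool (3.38, and 1.67 without CPCC pool 1), and was detected in 13.6% of CPCC cells. Actc1, cardiac actin, was listed only in CPCCs, at 43.4 and 5.29 CPM in the pools and in 9.47% of cells. Titin, encoded by Ttn, had 39.1 CPM in mESCs and 17.4 CPM in CPCCs (-1.12, with -4.77 without CPCC pool 1 and -0.14 without pool 2). Myh6, the cardiac myosin heavy chain, had 0.559 CPM in CPCCs and was detected in 10.7% of cells. Among lineage factors Gata4 was higher (16.9 against 0.869 CPM, 3.26), with 96.1% of its counts in 9 cells. Nkx2-5, which marks heart precursors, was listed only in CPCCs, at 0.359 CPM in 5.33% of cells, and Mef2c was listed only there, at 0.600 and 110 CPM in the pools. Fst aside, none of the genes named here that was higher or listed only in CPCCs was detected in more than 25% of their cells.

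Macrophage genes were high in CPCC pool 2 and not in CPCC pool 1. All 15 macrophage genes were listed in CPCCs, and 9 of them, with C1qa, C1qb, C1qc and Tyrobp among them, were not listed in mESCs. The 6 compared were all higher (against 7.17% of all), with a median of 5.28 (6.21 without CPCC pool 1 and 0.094 without pool 2). Summed over the listed members the level was 39.5 to 54.1 CPM in the mESC pools, 20.2 CPM in CPCC pool 1 and 7069 CPM in CPCC pool 2. The complement gene C1qb had 0 and 1206 CPM in the CPCC pools. Csf1r, the receptor for the macrophage growth factor, had 0.0899 and 180 CPM. The rule of at least 10 counts was applied to the 5 markers C1qa, C1qb, C1qc, Csf1r and Tyrobp, and 20 of the 91 cells of pool 2 met it for 3 or more. Single markers were detected in more cells, with C1qb in 30.2% of all CPCC cells. Without these 20 cells the log2 ratio of Fcgr3, which was not used to pick them, was -3.35 instead of 3.13. That of Csf1r was 0.15 instead of 6.29, but Csf1r is 1 of the 5 markers that picked these cells.

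Several other high ratios were smaller without the same 20 cells. Selenop, which encodes a secreted selenium transport protein, had a log2 ratio of 7.83 with these cells and 3.34 without them, and Rnase4 one of 7.55 and 5.36. Apoe, an apolipoprotein, had 2.14 and 0.04, Ctsd, a lysosomal protease, 3.30 and 1.10, and Spp1, a secreted phosphoprotein, 2.20 and -1.19. Gpnmb, of which 9 cells held 98.7% of the CPCC counts, had 5.20 and -0.49. By contrast Tagln (9.10 and 9.24), Bgn (8.93 and 9.09), Krt8 (7.65 and 7.85) and Dusp6 (4.81 and 4.52) were close to these values without these cells. The number of higher genes was 898 and of lower genes 188 without them.

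Some further genes of single programmes had large ratios. H19, an imprinted long non-coding RNA, had at most 0.184 CPM in an mESC pool and 73.7 and 639 CPM in the CPCC pools (8.35), and was detected in 2.46% and 59.8% of cells. Ccnd2, cyclin D2, had at most 1.29 CPM in an mESC pool and 139 and 455 CPM in the CPCC pools (7.604). Ccnd1 had a ratio of 1.22 and Ccnd3 one of -0.96, so the D cyclins differed in direction. Anxa1, which binds membranes in the presence of calcium, had 774 and 683 CPM in the CPCC pools against 2.92 to 5.91 CPM (7.12), and was nearly even between the CPCC pools.

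Proliferation genes were present in both samples at moderately different levels. Of 18 S phase genes none passed the 4-fold rule, 17 had a ratio below 0 and the median was -0.70 (-1.27 without CPCC pool 1 and -0.30 without pool 2). All 18 genes of the G2 and M phases were below 0, with none past the rule and a median of -0.55 (-0.90 without CPCC pool 1 and -0.32 without pool 2). The 85 genes of cytosolic ribosomal proteins were also all below 0, with a median of -0.54 (-0.88 without CPCC pool 1 and -0.25 without pool 2). Of the 85, 1 passed the rule, near the 1.43% of all compared genes called lower. It was Rpl39l (-2.39), a variant of Rpl39 that is mainly known from testis. Rpl39l was inside the limit without CPCC pool 2 (-1.56) and at a pseudocount of 10 CPM (-1.57). Ratios of such lists are relative to all gene counts of a sample, and the median of all compared genes was -0.0060.

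It was then counted whether low naive factors and high contractile genes lay in the same cells. For each cell the CPM of the 13 naive factors and of the 12 contractile genes listed in both tables were summed. The mESC cells reached down to 101 CPM for the naive sum and up to 477 CPM for the contractile sum, and these ends were used as limits. The naive limit is the value of 1 outlying mESC cell, since the 5th percentile of mESC cells was 1018 CPM and their median 2816 CPM. Of the 169 CPCC cells, 58 (34.3%, 27.2 to 42.0%) stayed within both limits, 58 (34.3%) were above the naive limit with a contractile sum above the mESC range, 45 (26.6%) were below the naive and above the contractile limit, and 8 (4.73%) were below the naive limit only. A contractile sum above every mESC cell was thus found in 58 cells above the naive limit and in 45 of the 53 cells below it. Cells above the naive limit were mostly not at mESC levels. The median naive sum was 1388 CPM in the first of the 4 ranges and 494 CPM in the second, and 24 and 44 of their 58 cells lay below the 5th percentile of mESC cells. The classes are ranges of a sum and not cell types, and 39 cells lay within 2-fold of the naive limit and 49 within 2-fold of the contractile one. With the 5th and 95th percentiles of mESC cells as limits the 4 numbers were 20, 28, 98 and 23.

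**Figure D5:**
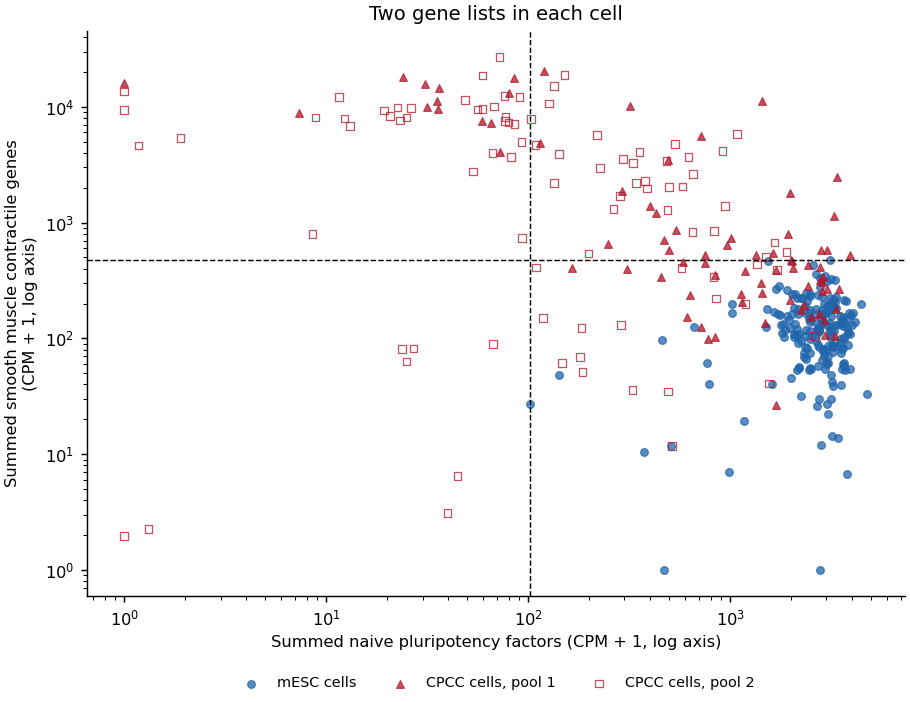
Each point is 1 cell, with the summed CPM + 1 of 13 naive pluripotency factors on a log x axis and of 12 smooth muscle contractile genes on a log y axis; dashed lines mark the lowest naive and the highest contractile sum of an mESC cell. CPCC cells with a contractile sum above the mESC range spread from near the mESC cells down to and past the naive limit (58 cells above it, median naive sum 494 CPM, and 45 below it), and CPCC pool 2 holds all 8 cells below the naive limit without high contractile genes.

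The pools divided unequally over these ranges. CPCC pool 1 had 40, 25, 13 and 0 cells in them, in the order given, and pool 2 had 18, 33, 32 and 8. The cells with macrophage markers numbered 8, 5, 2 and 5. Other genes followed the ranges in different ways. Median Dusp6 was 0 CPM over mESC cells and 50.9, 61.3, 90.2 and 32.2 CPM over the CPCC ranges, so it was above mESCs in each of them. Spic was detected in 5 of the 58 CPCC cells that stayed within both limits, against 179 of 203 mESC cells.

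Epithelial and mesenchymal genes parted between the ranges. Median Epcam was 46.9 CPM in mESCs, 311 and 417 CPM in the CPCC ranges above the naive limit, and 0 in both ranges below it. Median Vim was 25.1 CPM in mESCs, 31.7 and 28.8 CPM above the naive limit, and 1641 CPM in the 45 cells past both limits. In those 45 cells median Bgn was 923 CPM and median Ccnd2 was 462 CPM, while both medians were under 1 CPM in each of the other ranges. Krt8 was detected in 44 of the 58 cells above both limits, and in 16 of the 45. Summed S phase genes had a median of 5544 CPM in mESCs, 4837 and 3904 CPM above the naive limit, and 1766 CPM in the 45 cells. The median counts per cell of the 4 ranges were 1474326, 1112342, 1758421 and 1487340, and the median genes 9742, 9244, 9333 and 5807. The last range also held 2 of the 3 CPCC cells over 30% mitochondrial counts. The part of depth and RNA quality in these differences was not tested.

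Genes listed in only one table were left out of all ratios. In CPCCs 3099 listed genes had no row in the mESC table and held 1.76% of the CPCC counts, and 181 of them reached 10 CPM. Beside Acta2 and the complement genes they included Thbs1 (498 CPM), a matrix glycoprotein, Cav1 (332 CPM), the coat protein of caveolae, Actg2 (228 CPM), a smooth muscle actin, and Col3a1 (109 CPM), a fibrillar collagen. Kdr, the VEGF receptor of endothelial cells, had 12.4 CPM in 5.33% of cells. In mESCs 2167 genes had no row in the CPCC table and held 0.166% of the counts. Of the 12 that reached 10 CPM, 11 carried septin and similar names that appear as dates in the CPCC table, so their absence is one of names.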

How the data were processed

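Per the labels and the study's methods, single cells were captured on Fluidigm C1 chips, and polyadenylated RNA was amplified with SMART-Seq v4, indexed with Nextera XT and read as pairs. The authors aligned reads with STAR 2.7 in Partek Flow to GRCm38 with Ensembl genes. The strand setting and the counting model were not given in the sources used here. The authors deposited 1 unscaled table per sample. The deposited mESC values were expected counts that the authors made in Partek Flow from the aligned reads, with 26.4% of values above 0 more than 0.001 from a whole number. The deposited CPCC values were whole counts made by the authors, so counting and culture cannot be told apart for genes that share reads with copies. Each deposited table lists only genes that reach 1 count in a cell. In the CPCC sample, 208 rows without a gene and 23 rows with date-like names (together 0.139% of counts) and 2 empty unmapped columns were left out.

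Cells under 100000 counts were removed (12 mESC, 6 CPCC). Counts were summed per sample or pool and scaled to CPM of all gene counts. Genes listed in both tables with a mean of at least 1 CPM were compared by the log2 ratio of (CPM + 1), which understates low genes, and called at 4-fold. With 1 sample per group no p-value was computed. Detection was at least 1 count. Intervals are exact Poisson for CPM and Clopper-Pearson for shares, at 95%, and cover counting error only, since reads carry no molecular identifiers. Thinning used rounded counts.

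Most genes named in the text were drawn from the markers, from members of 38 gene lists and from ranks. The ranks were the 15 highest and 15 lowest ratios among genes detected in 25% of cells of the higher sample, and the 10 highest and lowest pair shares at a mean of 50 CPM. Further ranks were the 10 highest and lowest ratios at 500 CPM and the 5 higher genes most held by 9 cells. Not all genes of these ranks and lists are named. The members and lists were chosen with earlier results of these data known. Gene positions are from GENCODE M21 (GRCm38) and promoter windows from RefSeq. Alternatives were other scaling (edgeR 4.0.16 TMM, DESeq2 1.42.0 size factors), cell weights, pseudocounts, filters, left-out pools and, chosen after seeing the data, leaving out cells with macrophage markers or over 30% mitochondrial counts. Python 3.11.15, pandas 2.3.3 and scipy 1.17.1 were used, and the steps were tested on simulated counts.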

Additional observations from a re-analysis of the deposited data

How the results depend on the processing

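With CPCC pool 2 left out 514 genes were higher and 176 lower, and with pool 1 left out 1435 were higher and 646 lower. Over all left-out pools the numbers ran from 514 to 1435 higher and from 176 to 646 lower, with pools apart from 514 to 1435 and from 176 to 645, and for cell pairs from 1 to 14 genes at 90% or more and from 12 to 130 at 10% or less. The share of higher calls was 83.3%, and 69.0 and 74.5% with CPCC pool 1 or pool 2 left out. A pseudocount of 10 CPM gave 270 higher and 38 lower genes (240 and 38 with pools apart), one of 0.1 CPM gave 454 lower (419 with pools apart), and a mean level of at least 10 CPM gave 581 and 120 (517 and 120). At least 90% of pairs held for 2 genes with cells of 500000 or more counts, 3 without cells carrying macrophage markers and 0 after thinning, and at most 10% for 57 genes with cells of 30% or less mitochondrial counts. The median log2 ratio stayed between -0.063 and 0.038 under all settings. With 1 CPCC pool left out, the log2 ratio ran from -0.65 to 6.21 for the macrophage list median, -0.14 to 7.24 for Csf1r, -3.56 to 4.08 for Fcgr3, -0.020 to 3.37 for Fgf8, -0.43 to 6.15 for Gpnmb, -2.25 to 2.94 for Serpinb1a, -0.65 to 5.19 for Spi1, -1.08 to 3.09 for Spp1 and -0.61 to 5.68 for Tnnt2, each lowest without pool 2, and from -1.31 to 3.25 for Lama1 and -0.34 to 2.96 for Phlda2, lowest without pool 1. Signs also turned without macrophage-marker cells for Fcgr3 (-3.35), Gpnmb (-0.49) and Spp1 (-1.19). Of 164 named calls, 32 higher and 11 lower were lost without CPCC pool 2, 14 and 1 without pool 1, 47 and 10 at a pseudocount of 10 CPM and 11 and 3 without macrophage-marker cells. Without pool 2, 41.6% of the 1056 higher and 54.5% of the 211 lower genes were called again. Without pool 2, 3 of the 6 macrophage genes passed the filter on low values, and over all 6 the median was 0.094 (0.61 without macrophage-marker cells). Other causes were not tested. No paired analysis was possible because there was 1 sample per group and no test.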

Other observations

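Imprinted genes were compared as a list. Of 16 compared, 8 were higher (against 7.17% of all compared genes), 1 was lower (against 1.43%) and the median log2 ratio was 1.96, against -0.0060 for all. Over the same genes it was 1.69 without CPCC pool 1 and 1.88 without pool 2, and such values are given in brackets for the lists that follow. Beside H19 the higher ones included Nnat (5.91), Peg10 (4.78), Sgce (4.50) and Mest (2.50, and 1.96 without CPCC pool 2). Peg10, a gene derived from a retrotransposon, had 1.38 to 2.21 CPM in the mESC pools and 118 and 32.8 CPM in the CPCC pools, and was detected in 15.8% and 76.3% of cells. Igf2r, the receptor that clears IGF2, was the lower one (-2.33, and -1.76 without CPCC pool 2). The tables do not separate the parental alleles.

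Of the immediate early genes, which respond to serum, growth factors and handling, and heat shock genes, 4 of 8 were higher (against 7.17% of all), none was lower and the median was 2.38 (2.97 and 1.52). Jun (1.97) and Fosb (1.66) were inside the limit at a pseudocount of 10 CPM. Fos had 10.2 to 28.4 CPM in the mESC pools and 62.0 and 302 CPM in the CPCC pools (3.46), and Jun (4.004), Atf3 (3.81) and Fosb (3.61) were the others. Without the 20 cells with macrophage markers the ratios were 2.47 for Fos, 2.25 for Atf3, 3.15 for Fosb and 3.65 for Jun, and Fos was inside the limit without CPCC pool 2 (1.89). The heat shock genes Hspa1b (-0.31) and Dnajb1 (-0.44) were inside the limit.

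Enzymes of DNA methylation and its removal differed in direction, with 1 of 6 higher (against 7.17% of all), none lower and a median of -0.96 (-1.71 and -0.37). Dnmt3l, a cofactor of new methylation, had 12.4 to 48.4 CPM in the mESC pools and 282 and 32.4 CPM in the CPCC pools (2.61, and 0.41 without pool 1), while Dnmt1 (-1.05), Uhrf1 (-1.15) and Tet2 (-1.41) were inside the limit with pools apart. Among enzymes of energy and amino acid metabolism, Pfkp, the platelet-type phosphofructokinase, was lower (-2.07), as was Tdh, threonine dehydrogenase (-2.02, from 571 to 986 CPM in the mESC pools to 346 and 32.0 CPM), whereas the glycolytic list as a whole had a median of -0.42 (-0.43 and -0.42) with 1 of 16 lower (against 1.43% of all). Both stood close to the limit and were inside it without CPCC pool 2 (-1.83 and -1.12) and with equal weight for every cell (-1.95 and -1.88), and Tdh also with TMM (-1.99) and DESeq2 (-1.98) scaling. Cox5a, a subunit of cytochrome c oxidase, had a ratio of only -1.37, yet the CPCC cell was higher in 7.73% of pairs.

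All 5 endoderm genes compared were higher (against 7.17% of all), with a median of 2.62 (1.87 and 2.80), but 4 of the 5 were inside the limit with 1 CPCC pool left out. Gata6 (1.71), Sox17 (0.81) and Sox7 (1.87) were so without pool 1, and Apoe (0.35) without pool 2. Without the cells with macrophage markers Apoe had 0.04 and Dab2, an endocytic adaptor, 2.81 instead of 4.28. Sox17 and Sox7 were held by few cells, with 99.6% and 99.96% of their CPCC counts in 9 cells. Of 4 endothelial genes 2 were higher (against 7.17% of all), with a median of 2.11 (2.77 and 0.57). Plvap, of endothelial diaphragms, had 2.59, and 0.41 without CPCC pool 2. Flt1 had 53.3 and 33.4 CPM in the CPCC pools (5.30), while Pecam1, which mESCs also express, had a ratio of -0.90. Of genes of the 2-cell-like state none could be compared, since 4 were listed only in CPCCs and 6 in neither table.

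The medians of the remaining lists mostly moved with the CPCC pool left out. Nodal and mesendoderm genes had -0.65 (-0.96 and -0.38) with 1 of 8 lower (against 1.43% of all). It was Gsc (-2.55, and -0.85 at a pseudocount of 10 CPM). Hypoxia response genes had -0.64 (-0.16 and -1.44). Of 8, 1 was higher (Adm, 2.73, against 7.17% of all) and 1 lower (Ankrd37, -2.21, against 1.43%). At a pseudocount of 10 CPM both were inside the limit (1.82 and -1.46). Ankrd37 was also inside it without CPCC pool 1 (-1.94), without mESC pool 2 (-1.98) or pool 3 (-1.96), and with equal weight for every cell (-1.70). Threonine and serine metabolism had -0.43 (-1.05 and -0.027) with 1 of 9 lower (against 1.43% of all). Metallothioneins had -0.54 (-2.61 and -0.091), and mitochondrially encoded subunits -0.07 (0.073 and -0.34). Of 23 Hox genes only 3 passed the filter on low values, with -1.22 (-1.58 and -0.92, and -0.0037 without mESC pool 1). G1 cyclins and CDK inhibitors had 0.85 (0.88 and 1.06) with 2 of 11 higher (against 7.17% of all). Neural genes had 1.14 (0.73 and 1.34) over 3, cardiac lineage factors 1.19 (1.72 and -0.021) over 4, and epicardial genes 1.37 (0.21 and 0.43) over 5.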
